A study of Homo sapiens with 6 samples.

Results

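The genes for the proteins of the cytosolic ribosome were represented by 95 transcript clusters (sets of probes for 1 transcribed locus) of 62 genes, out of 33297 clusters on the array. They were chosen by a rule on gene names, set with earlier results of these data known. The rule took every cluster with exactly 1 gene symbol in the array's annotation, where that symbol fitted the names of these genes. These were RPL or RPS with a number and at most 1 letter (A, L, X or Y), or RPLP1, RPLP2 or FAU. RPLP0 and RPSA belong to the same rule but had no cluster of their own symbol. Another 11 genes, among them RPL13A, RPL39, RPS12 and RPS18, stood only in clusters that also carry other symbols and are not members. The members hold 59 clusters of 39 large-subunit genes and 36 clusters of 23 small-subunit genes, and 21 genes had more than 1 cluster. Near-identical processed pseudogenes are common for these genes, so probes may not separate a gene from its copies, and clusters of 1 gene are not independent measurements. Of the 95 rows, 3 repeat the values of another row on every array (1 each for RPL13, RPL41 and RPS28).

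RNA came from HEK293, a line derived from human embryonic kidney, on 6 Affymetrix Gene 1.0 ST arrays, 3 titled control and 3 titled treatment. The study set out to find mediators behind an anti-HIV effect that accompanies transfection with an empty plasmid, pCMV9. The source field gives the control cells a transient vector and the treatment cells a Neo vector, whereas the design text calls the reference cells untreated, so the 2 groups are called control and treatment here. No time, dose or batch is given, and nothing says that replicates were separate cultures. The p-values therefore rest on the spread between these arrays only, which may be technical. The test used here, limma, draws the variance of each cluster towards a value common to all clusters. A standard error or interval is thus not the spread of that cluster alone, and the lowest standard error among members was 0.189. Values are linear intensities as deposited, with array medians from 77.2 to 84.2. Log2 changes are treatment minus control on log2(intensity + 16), where 16 is an offset that damps noise in dim clusters. Treatment replicate 3 correlated least with the other arrays (mean r = 0.963, against 0.972 to 0.978 for the others). The filament genes KRT8, KRT18, VIM, NEFM and NEFL, known from HEK293, had intensities from 663 to 2339 on all arrays, and of these VIM and 1 of 2 KRT18 clusters were lower in treatment without overlap (-0.29 and -0.23). The kidney factor PAX2 gave 44.4, 57.4 and 66.4 in control and 98.1, 105.7 and 113 in treatment arrays, apart between groups (0.76; limma, adjusted p = 0.328). The leukocyte markers PTPRC and CD3E stayed between 8.45 and 36.2, and the third measured one, CD14, between 142 and 252. Of the markers of HEK293, leukocytes, fibroblasts, endothelium and liver, 0 clusters passed limma. The endothelial CDH5 ranged from 612 to 1299, whereas VWF ranged from 17.5 to 78.0. PECAM1, also endothelial, ranged from 80.7 to 149 in its brighter cluster and from 0.997 to 5.31 in the other. The fibroblast markers COL1A1 (-0.46) and COL1A2 (0.47) were apart between groups in opposite directions, while LUM and DCN overlapped. Both clusters of the liver marker APOA1 (0.58 and 0.56) and that of ALB (0.27) were above 0, with overlap. The part of these markers in the results was not tested.

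Each ribosome joins a small subunit, which decodes the mRNA, and a large subunit, which forms peptide bonds, and each subunit carries its own set of proteins on a core of ribosomal RNA. The proteins are made in nearly equal numbers, and unassembled copies are degraded. Their mRNAs typically begin with a C followed by an unbroken run of C and U, the terminal oligopyrimidine (TOP) tract. Through it the translation of the mRNAs that carry the tract is switched together by the kinase mTOR and the RNA-binding protein LARP1.

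The TOP tract was common at the annotated starts of the members, although the choice of genes did not use it. The RefSeq promoter table (GRCh38.p14) held 61 start windows for 51 of the 62 genes. Of these windows, 37 (60.7%) have a C as first transcribed base followed by at least 4 bases that are all C or T, on the coding strand. Over all 35116 windows the share was 4.07%. In 37 of the 51 genes at least 1 annotated start met this definition, with a median tract of 8 bases among windows that did. Annotated starts can lie a few bases from those used in the cell, so a window without the tract says only that these letters are not there. The windows below run from 15 bases before the start through the first 15 transcribed bases, with the tract in capitals. They show the members described first in the results (RPL41, RPL34, RPS7), the target of S6 kinases (RPS6), a stalk protein (RPLP2), the RNA-binding RPS3, and genes without the tract at the annotated start (RPS7, RPS4X and the paralogs RPS27L and RPL10L). Another annotated start of RPL34, not shown, lacks the tract.
RPL41 (chr12:56116618-56116647, plus strand): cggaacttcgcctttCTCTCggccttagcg
RPL34 (chr4:108620561-108620590, plus strand): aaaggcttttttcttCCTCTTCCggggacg
RPS6 (chr9:19380222-19380251, minus strand): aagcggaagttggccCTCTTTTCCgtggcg
RPLP2 (chr11:809952-809981, plus strand): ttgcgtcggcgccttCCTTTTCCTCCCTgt
RPS3 (chr11:75399503-75399532, plus strand): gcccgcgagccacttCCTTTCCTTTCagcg
RPS7 (chr2:3575245-3575274, plus strand): gtttccgccctcctcctcgcgctgtttccg
RPS4X (chrX:72277234-72277263, minus strand): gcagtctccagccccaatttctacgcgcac
RPS27L (chr15:63157463-63157492, minus strand): aagttgatgccgagcgcagatcgcttgcag
RPL10L (chr14:46651767-46651796, minus strand): caggcgtagttaagagagcgcattttgact

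Did the treatment arrays differ from the control arrays in these genes? The measured values were slightly lower in nearly all of them, and no single cluster passed the test. The log2 change was below 0 in 93 of 95 clusters, where 48.2% of all clusters were below 0. The median was -0.24, which equals a change of -15.5% in intensity plus the offset of 16. The middle of the distribution was narrow, from -0.33 to -0.17 between quartiles. Over all 33297 clusters the median was 0.01 and the quartiles were -0.16 and 0.20. With 1 cluster per gene, the brightest, the median over 62 genes was -0.24 and 61 were below 0. The 2 clusters above 0 were a dim one of RPS15 and that of RPL10L.

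Tested one by one with limma, 0 of 95 members passed an adjusted p of 0.05 in either direction, where 0.372% of all clusters passed and 0.015% passed as lower. The lowest adjusted p among members was 0.507. Without adjustment, 6 members had p under 0.05, all lower, against 2.29% of all clusters that had such a p and were lower. That number moved with the settings: it was 32 (2.36% of all clusters) with an intensity trend in the prior, 31 (4.15%) with an offset of 50, 27 (4.18%) without treatment replicate 3, and 3 (1.2%) with the replicate number as a block. The intensity trend lowered the members' median standard error from 0.199 to 0.148. The intervals still bound the size of the differences. The 95% interval of the log2 change included 0 in 89 members, lay above -1 in 92, and reached 1 in none.

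Groups that do not overlap were common among the members. All 3 treatment arrays lay below all 3 control arrays in 43 of 95 clusters (45.3%), against 7.1% of all clusters. All 3 treatment arrays lay above all 3 control arrays in 0 members, against 7.47% of all clusters. With the brightest cluster per gene, 31 of 62 genes had the treatment arrays below without overlap. RNA of many cells was pooled on each array, so a lower share of cells with the RNA and less RNA per cell cannot be told apart.

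**Figure D1:**
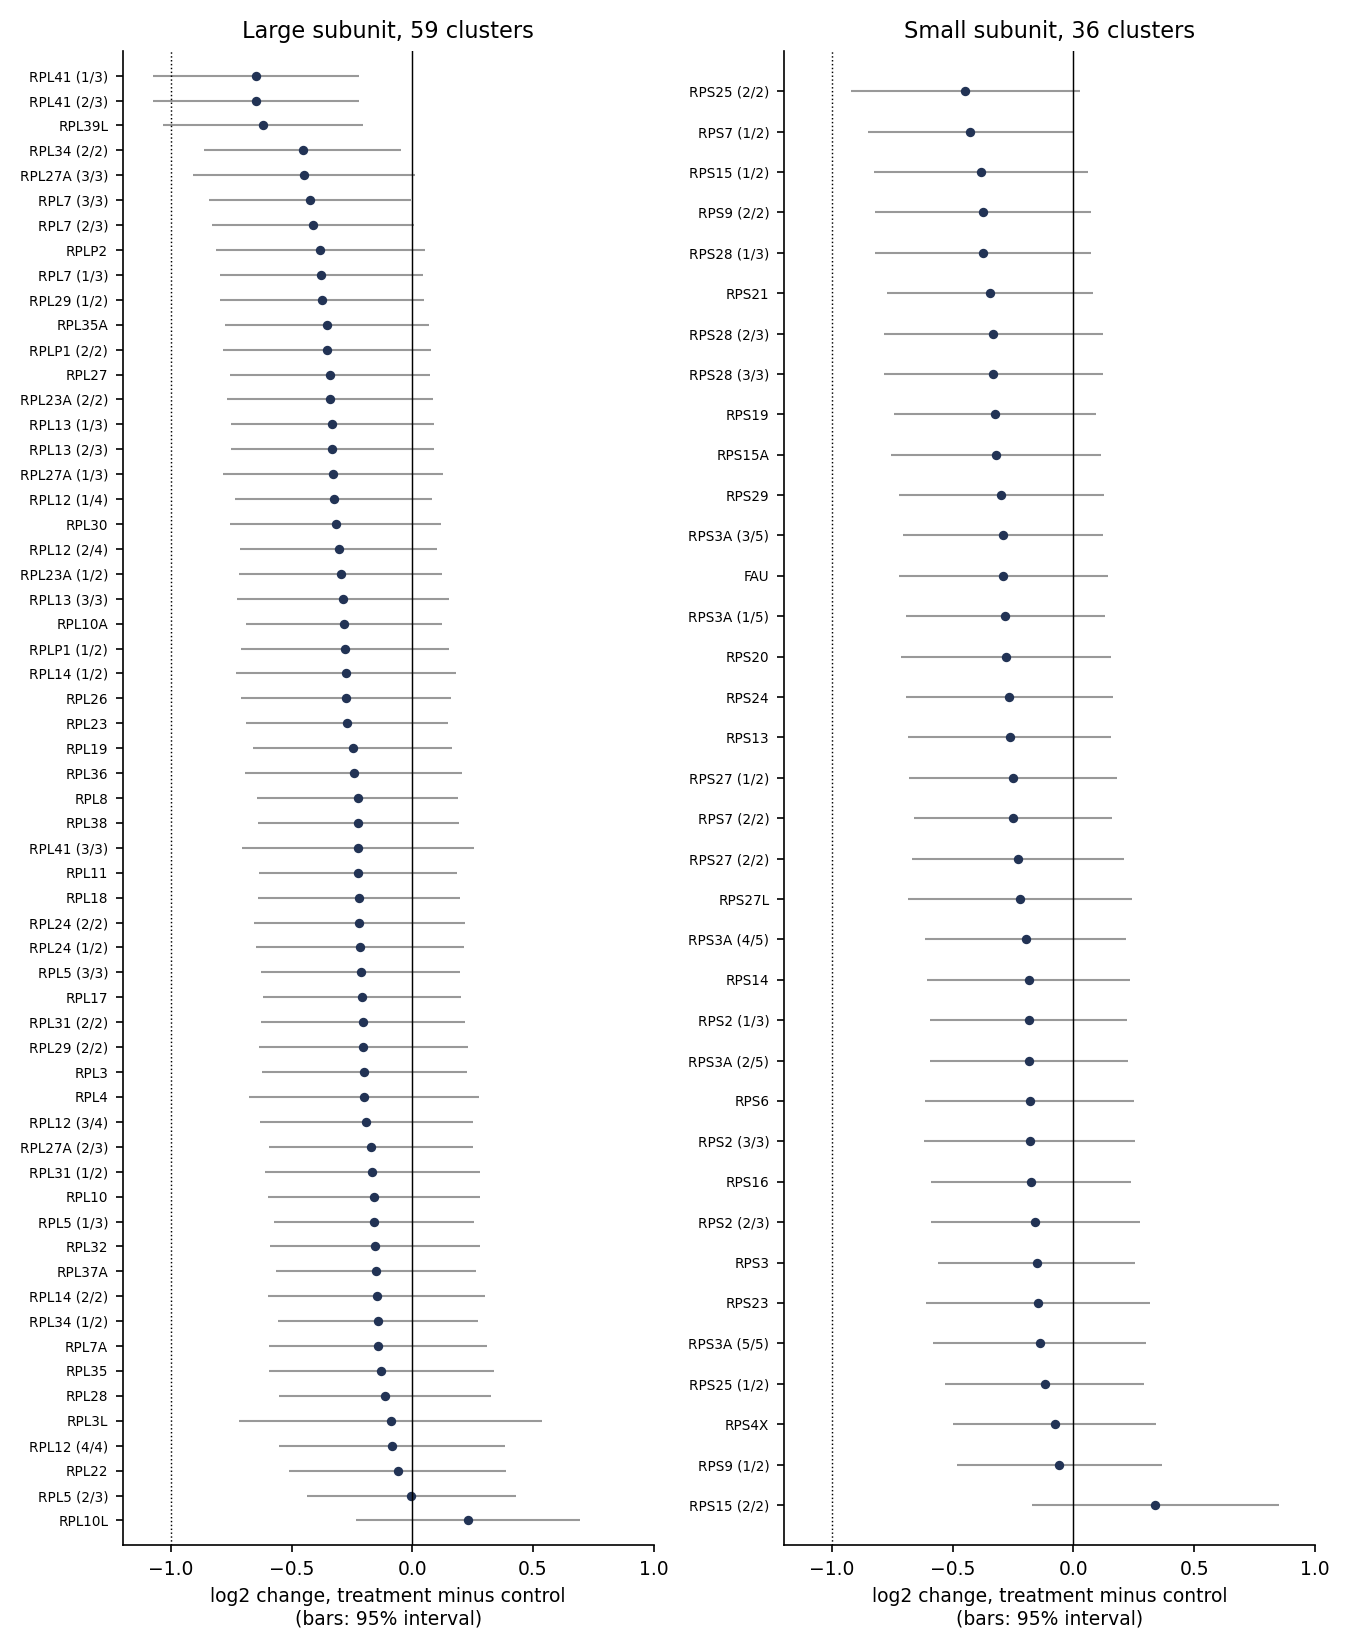
Log2 change (x axis, treatment minus control, n = 3 and 3 arrays) of the 59 large-subunit and 36 small-subunit clusters, with 95% intervals as bars; numbers in brackets give the cluster's place by brightness among those of its gene, and the dotted line marks -1. Points run from -0.65 to 0.34, 93 of 95 are below 0, and 89 intervals include 0.

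Seen by array, the lower values were present on each treatment array. The median of the 95 clusters, relative to each cluster's mean over the control arrays, was 0.01, -0.04 and 0.03 on control arrays 1, 2 and 3 and -0.30, -0.29 and -0.18 on treatment arrays 1, 2 and 3. The groups do not overlap in this median, and the SD between arrays of a group was 0.055. All clusters together gave 0.06, 0.01 and -0.05 on the treatment arrays. On treatment array 1, 83 of 95 members were below their control mean, where 43.8% of all clusters were. The counts were 92 (48.9% of all) on array 2 and 84 (53.98% of all) on array 3. In 73 members all 3 treatment arrays were below the control mean, as in 19.7% of all clusters.

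**Figure D2:**
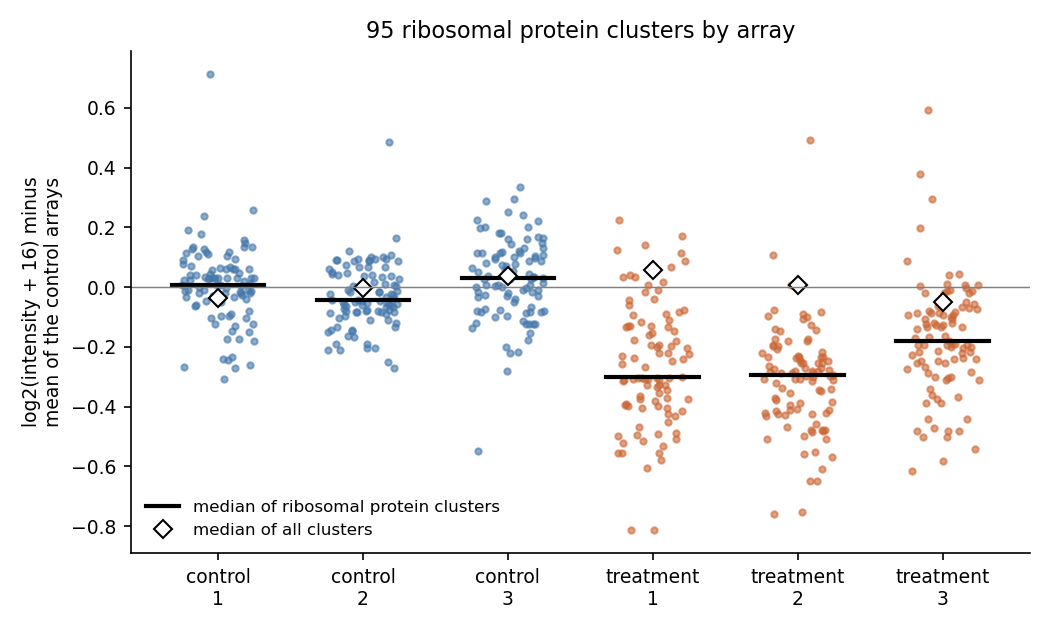
Each point is 1 of 95 ribosomal protein clusters on 1 array (y axis: log2(intensity + 16) minus the mean of the 3 control arrays); black lines are the members' medians and diamonds the medians of all clusters. The members' medians lie between -0.04 and 0.03 on control arrays and between -0.30 and -0.18 on treatment arrays.

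Members are bright, and over the whole array the median change differed between deciles of mean intensity without running one way. It was 0.01 in decile 1, 0.13 in decile 3, -0.08 in decile 8 and -0.04 in decile 10, the brightest. Of the 95, 78 were in the brightest decile of clusters by mean intensity, which begins at 744. The 3252 other clusters of that decile had a median change of -0.04, with 58.2% below 0 and 12.5% without overlap and lower in treatment. Relative to the control mean their median was 0.06, -0.01 and -0.17 on treatment arrays 1, 2 and 3. On array 3 the other bright clusters were about as low as the members (-0.17 and -0.18), while on arrays 1 and 2 the members were lower (-0.30 against 0.06, and -0.29 against -0.01). The part of brightness in the result was not tested. Without treatment replicate 3 the members' median was -0.27.

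**Figure D3:**
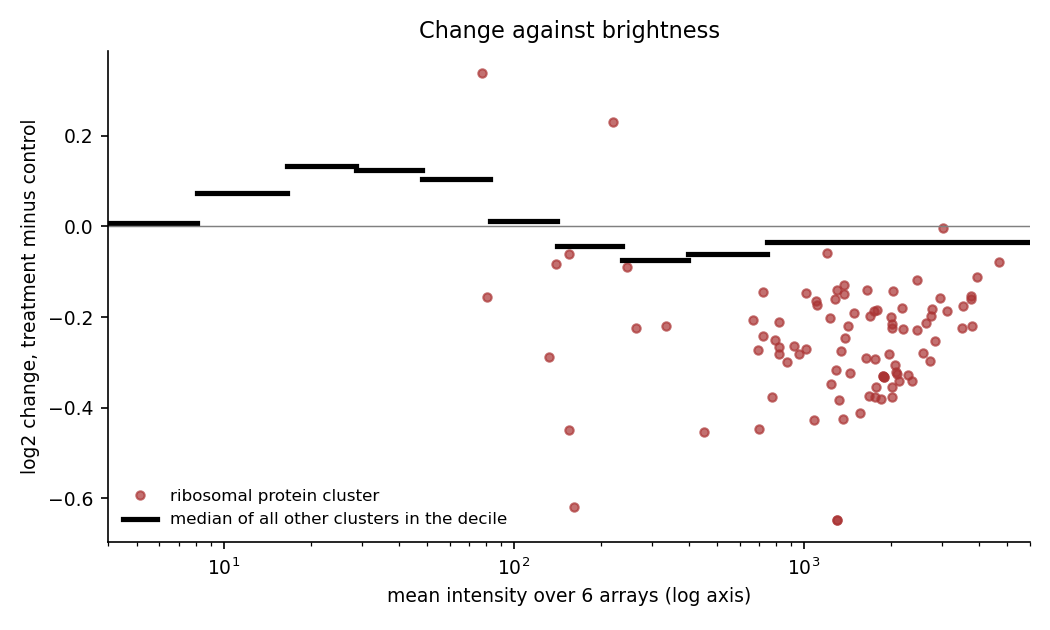
Log2 change (y axis) against mean intensity over 6 arrays (x axis, log scale) for the 95 ribosomal protein clusters, with black lines at the median of all other clusters in each decile of intensity. Members in the brightest decile have a median of -0.25, against -0.04 for the other clusters there.

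The clusters with the lowest p belonged to RPL41, which encodes the smallest ribosomal protein. The brightest RPL41 cluster and its repeated row gave 1709, 1470.2 and 1597 in control and 897, 1008 and 1133 in treatment arrays. The groups were apart by more than their own ranges. The means were 1592 ± 119.7 and 1013 ± 118 (SD, n = 3). On the log2 scale treatment minus control was -0.65 ± 0.198 (SE), with an adjusted p of 0.507 in limma. This pair of repeated rows was the only call among members under any alternative, with an intensity trend in the variance prior (adjusted p = 0.0421), and the adjusted p reached 0.953 with the replicate block. The dimmest of the 3 RPL41 clusters gave 324, 302 and 229, then 195, 232 and 301, where the groups overlap (-0.22 ± 0.224).

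RPL39L, a paralog of the peptide-tunnel protein RPL39 that is known for its activity in testis, had the next lowest p. It gave 192, 199 and 205 in control and 134, 111 and 127 in treatment arrays, so every treatment array was well below every control array. Its log2 change was -0.62 ± 0.193 (limma, adjusted p = 0.521) and ran from -0.68 to -0.52 over 18 alternatives, none of which called it. Its parent gene RPL39 had no cluster of its own here, so the 2 copies could not be set side by side.

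The other members with an unadjusted p under 0.05 were single clusters of RPL34, RPL7 and RPS7, with adjusted p from 0.674 to 0.683 in limma. The dimmer RPL34 cluster gave 509, 528 and 535, then 389, 364 and 382, a change of -0.45 ± 0.189. The brighter one gave 2134, 2045 and 2189, then 1904, 1775 and 2094, a change of -0.14 ± 0.192. The groups are apart in the first and overlap in the second, although the annotation gives both to 1 gene. The 3 RPL7 clusters gave changes of -0.38, -0.41 and -0.43 from the brightest to the dimmest, with the treatment arrays below the control arrays in each. RPS7, a small-subunit protein that also binds the p53 regulator MDM2, gave 1362, 1196 and 1168, then 859, 867 and 1036 in its brighter cluster (-0.43 ± 0.197) and -0.25 ± 0.19 in the other, both without overlap.

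**Figure D4:**
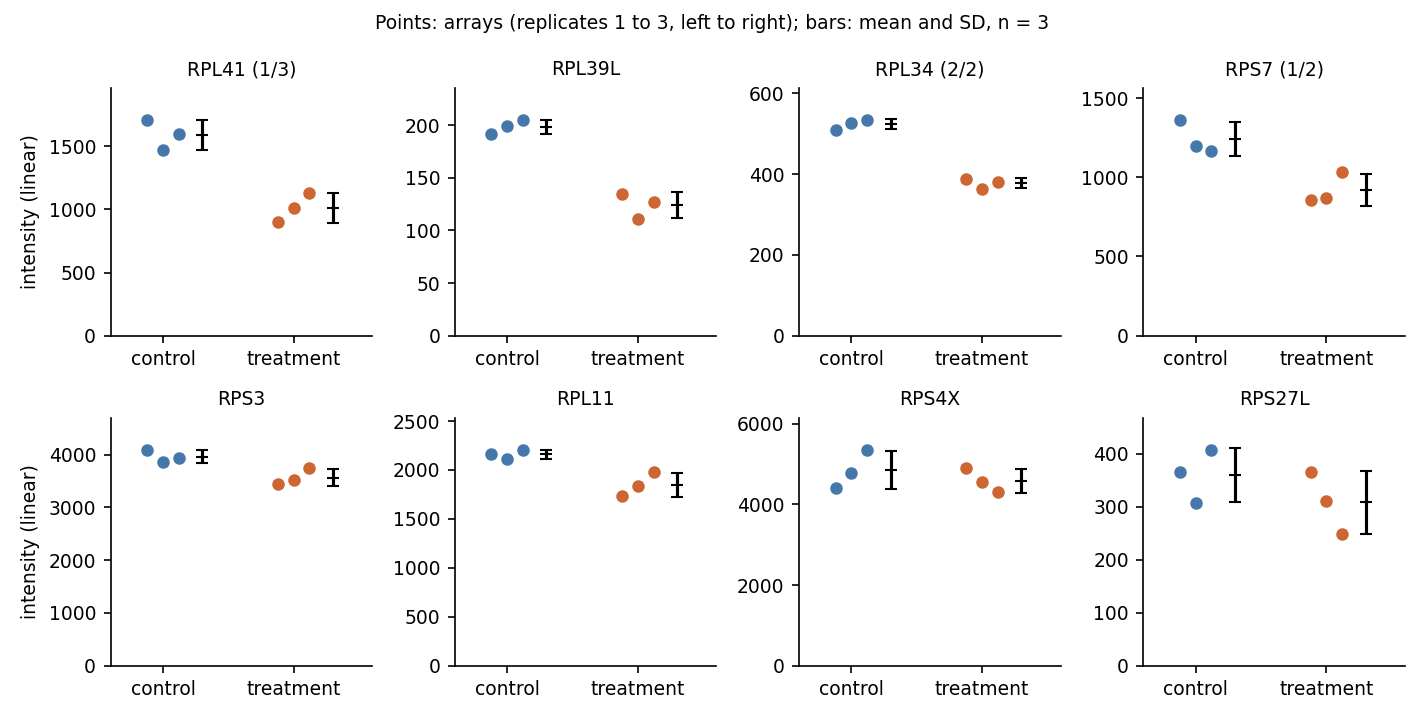
Linear intensity (y axis, from 0) of 8 clusters on 3 control (blue) and 3 treatment (orange) arrays, with mean and SD as bars (n = 3). The groups are apart for RPL41, RPL39L, RPL34 (dimmer cluster), RPS7, RPS3 and RPL11 and overlap for RPS4X and RPS27L.

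In the large subunit, RPL3 and RPL10 approach the catalytic centre, and RPL5 and RPL11 form a particle with 5S RNA that can also bind MDM2. RPL11 gave 2167, 2109 and 2206 in control and 1734, 1836 and 1981 in treatment arrays, without overlap (-0.22 ± 0.191). The 3 clusters of RPL5 did not share 1 pattern. The brightest gave 3891, 3738 and 4273, then 3615, 3693 and 3338, without overlap (-0.16 ± 0.192), and the dimmest gave -0.21 ± 0.192, also without overlap. The middle one gave 2656, 2943 and 3452, then 3251, 3012 and 2732, where the treatment values lie inside the control range, with a change of -0.0044 (95% interval -0.44 to 0.43).

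RPL3 gave 2198, 2184 and 2011, then 1721, 1727 and 2136, and RPL10 gave 1524, 1385 and 1153, then 1086, 1191 and 1344. For RPL3 treatment array 3, and for RPL10 treatment arrays 2 and 3, lay within the control range. RPL4 gave 2691, 2533 and 3552, then 3075, 2442 and 2127, and there treatment array 3 was the lowest of all. RPL38, known for its part in the translation of Hox mRNAs, gave 3726, 3886 and 3729, then 3007, 3107 and 3613, without overlap (-0.22 ± 0.194). RPL26, which can bind p53 mRNA, gave 825, 636 and 834, then 648, 649 and 582 (-0.27 ± 0.202), with overlap through control array 2. RPL22 gave 146, 155 and 172, then 187, 146 and 124, a change of -0.06 ± 0.209 whose sign turned without treatment replicate 3 (0.06).

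The stalk of the large subunit, which holds the P proteins, recruits the elongation factors, and RPL12 lies at its base. RPLP2 gave 2027, 2141 and 2051 in control and 1381, 1541 and 1878 in treatment arrays, a change of -0.38 ± 0.201. The 2 clusters of RPLP1 gave -0.28 ± 0.199 and -0.35 ± 0.201. All 3 clusters had the treatment arrays below without overlap, with treatment array 3 the closest to control. RPL12 had 4 clusters. The 2 brightest gave -0.33 ± 0.189 and -0.31 ± 0.19 without overlap, and the other 2 overlapped, at -0.19 and -0.08, the last of which turned to 0.03 without treatment replicate 1.

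In the small subunit, RPS6 is the classical target of S6 kinases, RPS3 guards the mRNA entry and also acts in DNA repair, and RPS19 is a gene of Diamond-Blackfan anaemia. RPS3 gave 4091, 3859 and 3936 in control and 3435, 3514 and 3742 in treatment arrays, without overlap (-0.15 ± 0.19). RPS19 gave 1528, 1547 and 1714, then 1206, 1198 and 1417, without overlap (-0.32 ± 0.195). RPS6 gave 2630.0, 2722 and 3483, then 2703, 2529 and 2495, which overlap (-0.18 ± 0.201). For RPS6 control array 3 was well above the other 5 arrays. FAU, which encodes RPS30 fused to a ubiquitin-like protein, gave 1514, 2016 and 1901, then 1413, 1448 and 1539, with control array 1 inside the treatment range (-0.29 ± 0.201).

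RPS4X, encoded on the X chromosome with a related copy on the Y, was among the members nearest to 0. It gave 4409, 4772 and 5351, then 4893, 4558 and 4295, a change of -0.08 ± 0.195 with overlap. Both RPS27 clusters overlapped, at -0.25 ± 0.2 and -0.23 ± 0.204. Of the 5 RPS3A clusters, the 3 brightest by mean over all arrays had no overlap and treatment lower (-0.28, -0.18 and -0.29) and the other 2 overlapped (-0.20 and -0.14). The brighter RPS9 cluster gave -0.06 ± 0.198, and turned to 0.01 without control replicate 1, while the dimmer one gave -0.38 ± 0.208, both with overlap. The dim RPS15 cluster gave 49.7, 98.0 and 56.0, then 73.8, 98.7 and 89.9 (0.34 ± 0.238), whereas the bright one gave 1478, 1584 and 1406, then 1053, 999 and 1395 (-0.38 ± 0.206), without overlap.

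The 59 large-subunit clusters had a median change of -0.23, with 58 below 0 and 29 (49.2%) without overlap and lower in treatment. The 36 small-subunit clusters had a median of -0.25, with 35 below 0 and 14 (38.9%) without overlap and lower. Over all clusters 48.2% were below 0 and 7.1% had no overlap and were lower. The 59 clusters of genes with the tract had a median of -0.22 and the 18 clusters of genes with annotated starts but no tract had -0.25. No difference between these subsets was tested.

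Paralogs known for activity in other tissues or states did not share 1 pattern. RPL10L, a testis-active copy of RPL10, gave 212, 189.6 and 193 in control and 197, 214.5 and 307 in treatment arrays (0.23 ± 0.215), with treatment array 3 well above the other 5 arrays. RPL3L, known from striated muscle, gave 408, 214 and 161, then 183, 227 and 280.1, with the widest standard error of all members (-0.09 ± 0.291), and its change became 0.27 without control replicate 1 and 0.05 without treatment replicate 1. RPS27L, which p53 induces, gave 365, 307 and 407, then 366, 310.3 and 248 (-0.22 ± 0.215), with overlap. Among paralogs outside the naming rule, RPL7L1, RPL26L1, RPL22L1 and RPL36AL, limma called 0 of 6 clusters, and an unadjusted p under 0.05 was reached by 0. All 6 were below 0, with a median of -0.34, and 4 had no overlap and were lower, where 48.2% and 7.1% of all clusters were.

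Treatment array 3 split the members. It lay above both other treatment arrays in 56 clusters (58.9%, against 39.2% of all clusters), below both in 22 (23.2%, against 43.5% of all), and between them in 17. The clusters of RPLP1, RPL23A, RPL24, RPS2 and RPS28 were among the first kind and those of RPL4, RPS24, RPS23, RPS4X and RPL28 among the second. RPS24 gave 888, 881 and 920.0, then 825, 789 and 629. RPS28 gave 2304, 2432 and 2051, then 1530, 1616 and 2117 in its brightest cluster.

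Genes that make, assist or regulate ribosomes were read from the same fit, and 0 clusters of any of these lists passed in limma. Their counts stand against 48.2% of all clusters below 0, 7.1% lower without overlap (12.5% among the other clusters of the brightest decile) and 2.29% lower with an unadjusted p under 0.05. Mitochondrial ribosomal proteins serve the separate ribosome of that organelle. Of 77 clusters of 73 such genes, 66 were below 0 and 19 (24.7%) had no overlap and were lower, with a median of -0.20 and 7 at an unadjusted p under 0.05, all lower. Their medians on treatment arrays 1, 2 and 3 were -0.25, -0.23 and -0.25. MRPL52 (-0.55 ± 0.205), MRPL40 (-0.55 ± 0.204) and MRPL20 (-0.46 ± 0.194) had the lowest p. The TOP definition was met in 7.32% of their start windows, against 60.7% for the members.

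Of 47 clusters of 38 translation factor genes, 39 were below 0 and 12 (25.5%) had no overlap and were lower, with a median of -0.14 and 1 unadjusted p under 0.05, that of the elongation factor EEF1B2. EEF1B2 gave 973, 979 and 882, then 710.0, 711 and 546 (-0.53 ± 0.202; limma, adjusted p = 0.65). EIF3G and EIF6 followed at -0.38 ± 0.215 and -0.36 ± 0.203. The TOP definition was met in 30.4% of the windows of these genes. Ribosome assembly genes gave a median of -0.03 over 54 clusters, with 33 below 0, 7 (13.0%) without overlap and lower, and 1 unadjusted p under 0.05. It was that of a cluster of the H/ACA particle protein NHP2 (-0.51 ± 0.196). A dimmer NHP2 cluster gave -0.37 ± 0.217, with overlap. On treatment arrays 1, 2 and 3 the medians of the assembly genes were 0.10, 0.04 and -0.27. Regulators of TOP mRNAs and S6 kinases gave a median of -0.07 over 25 clusters, with 16 below 0, 3 (12%) without overlap and lower and 1 unadjusted p under 0.05, that of the kinase RPS6KA1 (-0.47 ± 0.204). The differences between these lists and the members were not tested.

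**Figure D5:**
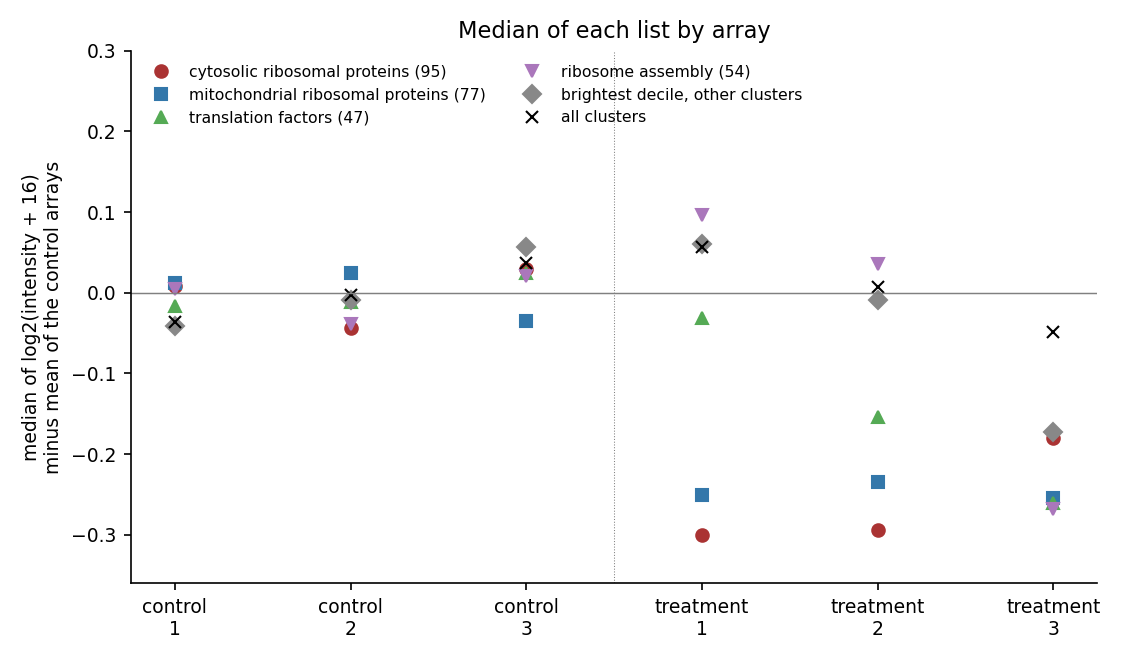
Median per list (y axis: log2(intensity + 16) minus the mean of the 3 control arrays) on each array, with cluster numbers in brackets. On treatment arrays 1 and 2 the cytosolic (-0.30 and -0.29) and mitochondrial (-0.25 and -0.23) ribosomal proteins lie below the other lists, and on treatment array 3 all lists but that of all clusters lie between -0.27 and -0.17.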

How the data were processed

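Values came from the deposited table of 33297 transcript clusters on 6 arrays, 3 control and 3 treatment. The deposited values are linear intensities, as their range shows. Partek is named in the submitters' processing notes, and the sources used here do not give background correction, normalization, probe summary or genome build. Symbols came from the platform annotation of the array, which named 19460 clusters with 1 gene, 1754 with several and 12083 with none. Precision is limited by the number of arrays.

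An offset of 16 was added before log2, and limma 3.58.1 (lmFit, eBayes; R 4.3.3) compared treatment with control, two-sided, without a block, with Benjamini-Hochberg adjustment over all clusters. The pipeline was tested on simulated data. Named members are the 8 with the lowest p, the 5 brightest and 5 dimmest, those of genes with several clusters, and 23 genes fixed for their known roles, of which RPLP0, RPSA, RPL13A and RPL39 had no cluster; the text gives part of these. For lists of genes that make, assist or regulate ribosomes, up to 3 clusters with the lowest p were to be named. The text gives part of these. Markers and other paralogs are named without this limit. Examples for treatment array 3 were chosen after their values were seen. Members and lists were chosen with earlier results of these data known. TOP tracts were read from RefSeq start windows (GRCh38.p14, 250 bases before to 50 after the start). Alternatives are given in the closing section. Intensity also depends on the probes, so the brightness of a cluster, used here to sort clusters into deciles, does not rank genes by RNA amount.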

Additional observations from a re-analysis of the deposited data

How the results depend on the processing

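Of 33297 clusters 124 were called, 40 when no offset preceded the log2, 58 when the offset was 1, and from 69 (without control replicate 1) to 129 (without treatment replicate 1) when 1 array was left out, with 82 without treatment replicate 2. Members called were 0 under every alternative run but 1, the intensity trend, which called 2, the repeated RPL41 rows; leaving out any 1 array gave 0. Their median change, -0.24, was -0.30 with each array centred on its median, and lay between -0.27 and -0.21 with 1 array left out. Clusters with several symbols counted as well and the mean of a gene's clusters, both chosen after seeing the data, changed it by less than the spread between arrays. In the fit with the replicate number as a block, 105 clusters were called, 0 members were called and the median was -0.24. Same-numbered arrays did not deviate together (r of -0.166, 0.0839 and -0.356 for numbers 1, 2 and 3), so the numbers were not used as pairs, and no array correlated best with its own number. Members below 0 numbered from 90 to 93 of 95 with all members kept. Signs that turned were those of the middle RPL5 cluster (0.027 with quantile normalization, from -0.092 to 0.097 with 1 array left out) and, with 1 array left out, RPL3L (from -0.36 to 0.27), RPL22 (from -0.20 to 0.065), the dimmest RPL12 cluster (from -0.27 to 0.0305) and the brighter RPS9 cluster (from -0.16 to 0.0087), where the cause was not tested. In the main fit, with 3 arrays a group, the members' median standard error was 0.199. Single clusters could there not be told from 0 at the size of the members' median. That standard error draws on a variance prior common to all clusters as well as on each cluster's own arrays. With an intensity trend in the prior it was 0.148, and 32 members had an unadjusted p under 0.05 in limma.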
